A study of Cannabis sativa with 12 samples.

Results

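The contigs described here are the gibberellin and brassinosteroid genes of the growing hemp hypocotyl, the stem below the seed leaves. They were the rows of the deposited table whose gene symbol was GASA with a number, or whose description named gibberellin, GAST1, brassinosteroid or ent-kaurene compounds, with bHLH factors and xyloglucan endotransglucosylase/hydrolases left out. The rule found 8 of 3622 contigs, of which 5 belonged to gibberellin and 3 to brassinosteroid. RNA-Seq was made on hypocotyls of Cannabis sativa cv. Santhica 27, a fiber hemp, harvested on day 6 (H6), day 9 (H9), day 15 (H15) or day 20 (H20) after sowing. All plants grew in incubators as 1 batch with no treatment named, with a day of 16 h at 25 °C and a night of 8 h at 20 °C. Each time point had 3 libraries, each from a pool of 20 whole hypocotyls, so that all tissues of the organ were mixed. The p-values therefore measure the spread between pools of a single batch, and age cannot be told apart from anything else that differed between harvest days.

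Gibberellins are diterpenoid hormones that promote elongation of stems. A cell that binds gibberellin through a GID1 receptor degrades its DELLA repressors, and genes such as those of the GASA family of small cysteine-rich peptides respond. Brassinosteroids are steroid hormones perceived at the cell surface by the receptor kinase BRI1 together with its co-receptor BAK1, which pass the signal through cytoplasmic BSK kinases to transcription factors of the nucleus. Both hormones act in hypocotyl elongation, and both take part in the growth of vascular tissue and wood. These roles are known mainly from Arabidopsis thaliana, whose names the contigs carry by similarity.

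Levels are given in RPKM, read counts scaled by the length of the contig and the mapped reads of the library, which allows contigs of different length to be compared. Differences are log2 fold changes of the read counts from edgeR's quasi-likelihood test with Benjamini-Hochberg adjustment over the 3622 contigs. Their standard errors (SE) were derived from that test, as the size of the log2 fold change divided by the square root of the F statistic. A contig is called higher or lower when its adjusted p is under 0.05. The libraries held 13409471 to 25851530 mapped reads, of which 31.1 to 36.9% lay in the table, and the biological coefficient of variation was 0.168. The smallest count of a member in a library was 37 reads. The whole table had been selected for contigs that differed among these 4 time points, so calls were the rule in it and the members are read against that background.

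From H6 to H20, 6 of the 8 members fell and 1 rose. The falls were those of GA20OX2, GID1C, GASA4, BRI1, BSK5 and BRH1, so that all 3 brassinosteroid members were among them. GASA12 was the member that rose, by 4.46 ± 0.16 on the log2 scale (SE, edgeR adjusted p = 3.65e-10). In this comparison 52.8% of all contigs were called lower and 40.8% higher. The median log2 fold change was −1.09 over the members and −0.58 over all contigs. The highest of the 4 mean levels was at H6 in 5 members, at H9 in 2 and at H20 in 1. Over all contigs H6 was the highest in 40.6%, H9 in 19.6%, H15 in 19.8% and H20 in 20.0%. In whole organs, fewer cells of a type and less RNA per cell cannot be told apart, which holds for every fall and rise given here.

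**Figure D1:**
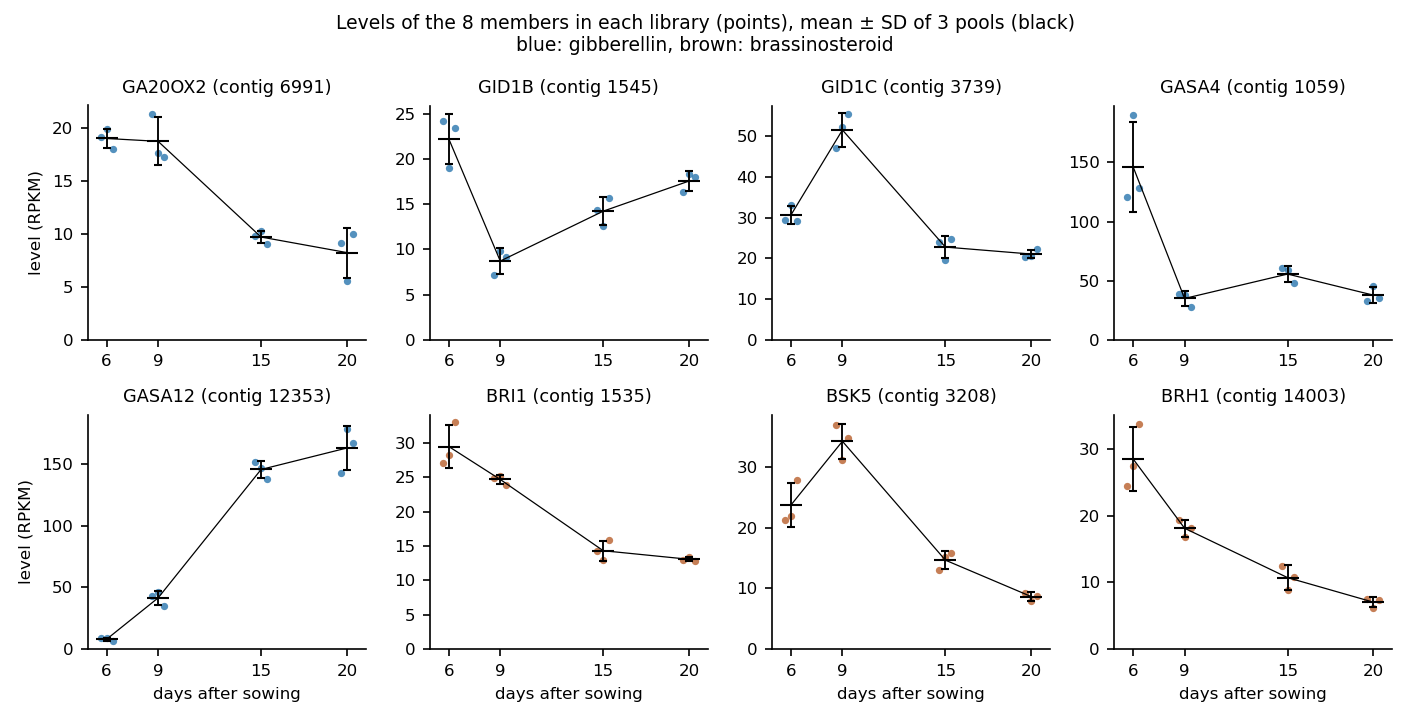
Level of each of the 8 members in RPKM (vertical axes, each from 0) against days after sowing. Points are the 3 libraries of a time point, black bars the mean ± SD, and blue and brown mark gibberellin and brassinosteroid genes. GASA12 climbed from a mean of 7.96 to 162.9 RPKM, GID1B and GID1C moved in opposite directions at H9, and BRI1 and BRH1 were highest at H6 and lowest at H20.

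GA20OX2 (contig 6991, 1239 bases) encodes a gibberellin 20-oxidase, an enzyme of the late steps of gibberellin synthesis. Its level was 19.2, 19.9 and 18.1 RPKM in the 3 libraries of H6. At H9 it was 21.4, 17.7 and 17.3 RPKM. It was 9.83, 10.3 and 9.07 RPKM at H15. At H20 it was 9.17, 5.56 and 10.0 RPKM. Every library of H6 and H9 was thus above every library of H15 and H20, while H6 overlapped H9 and H15 overlapped H20. The step lay between H9 and H15, where the contig fell by 0.81 ± 0.19 on the log2 scale (SE, edgeR adjusted p = 0.00174). From H6 to H9 the log2 difference was −0.04 ± 0.19 (adjusted p = 0.871 in edgeR), and from H15 to H20 it was −0.26 ± 0.19 (adjusted p = 0.306 in edgeR). The total fall from H6 to H20 was 2.15-fold (edgeR adjusted p = 1.14e-04). Replicate 2 of H20 was the lowest of the 12 libraries.

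The gibberellin receptors GID1B (contig 1545, 2389 bases) and GID1C (contig 3739, 2125 bases) changed in opposite directions at H9. GID1B measured 24.2, 19.0 and 23.4 RPKM at H6. It dropped to 7.15, 9.85 and 9.11 RPKM at H9. It stood at 14.4, 12.6 and 15.7 RPKM at H15 and at 16.3, 18.4 and 18.0 RPKM at H20. The H9 libraries were the lowest and none overlapped another time point. GID1C measured 29.5, 33.2 and 29.3 RPKM at H6. It reached 47.1, 52.3 and 55.4 RPKM at H9. It returned to 24.0, 19.7 and 24.6 RPKM at H15 and 20.4, 20.6 and 22.2 RPKM at H20. For GID1C the H9 libraries were the highest, again with no overlap, while H15 and H20 overlapped.

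From H6 to H9, GID1B fell by 1.37 ± 0.15 on the log2 scale (SE, edgeR adjusted p = 4.79e-06) and GID1C rose by 0.74 ± 0.11 (SE, edgeR adjusted p = 6.78e-05). From H9 to H15 both turned, and GID1B rose by 0.85 ± 0.15 (SE, edgeR adjusted p = 1.84e-04) while GID1C fell by 1.04 ± 0.11 (SE, edgeR adjusted p = 3.21e-06). The ratio of GID1C to GID1B within a library, which no scaling between libraries can alter, was 1.40 ± 0.294 at H6 (SD, n = 3). It was 5.99 ± 0.642 at H9, 1.60 ± 0.0597 at H15 and 1.20 ± 0.0692 at H20 (SD, n = 3 each). The lowest ratio of an H9 library was 5.31 and the highest ratio of any other library was 1.74. The summed level of both receptors was 52.9 ± 0.797 RPKM at H6 and 60.3 ± 5.39 RPKM at H9. At H15 it was 37.0 ± 4.19 RPKM and at H20 38.6 ± 1.78 RPKM (SD, n = 3 each), so that the 6 later libraries lay below the 6 earlier ones.

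The order of the GID1B levels was H6, H20, H15 and H9. H20 and H6 did not overlap, yet their log2 difference of −0.24 ± 0.15 did not pass the test (edgeR adjusted p = 0.128). It passed without replicate 2 of H6, at −0.35 (edgeR adjusted p = 0.0446), and in limma on log2(RPKM + 1), at −0.32 (limma adjusted p = 0.0476). It turned to 0.05 with DESeq2's size factors. H15 against H6 gave −0.52 on the log2 scale for GID1B (edgeR adjusted p = 0.00435) but −0.28 with DESeq2 (adjusted p = 0.083), a contrast added after the data were seen, as was every H15 to H6 and H20 to H9 value. The order for GID1C was H9, H6, H15 and H20. From H6 to H20 GID1C fell by 0.44 ± 0.11 (SE, edgeR adjusted p = 0.00216). The difference was −0.15 (adjusted p = 0.24) with DESeq2 and −0.20 (adjusted p = 0.116) in an edgeR fit of these time points alone. H15 against H6 gave −0.30 for GID1C (edgeR adjusted p = 0.0202), which became 0.0758 without replicate 2 of H6 and 0.0904 without replicate 2 of H15. That GID1C difference was −0.06 with DESeq2 (adjusted p = 0.62) and −0.19 in an edgeR fit of these time points alone (adjusted p = 0.201). Only reads with a single mapping position were counted, and how reads common to the receptor copies were divided was not tested.

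GASA4 (contig 1059, 755 bases) and GASA12 (contig 12353, 876 bases, symbol AT2G30810) were the most abundant members, and their order of abundance was exchanged between H6 and the later days. GASA4, a gibberellin-induced peptide gene in Arabidopsis, had levels of 120.5, 190.0 and 128 RPKM at H6. At H9 they were 39.1, 37.6 and 28.1 RPKM. At H15 they were 60.4, 58.7 and 47.6 RPKM, and at H20 32.6, 45.5 and 35.2 RPKM. Each H6 library was above all others. GASA12 had levels of 8.85, 8.66 and 6.36 RPKM at H6. They were 42.9, 46.4 and 35.1 RPKM at H9. They were 151.9, 147 and 138 RPKM at H15 and 143, 178 and 167 RPKM at H20. The GASA12 libraries of H6, H9 and the later days formed 3 ranges without overlap, and those of H15 and H20 overlapped.

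From H6 to H9, GASA4 fell by 2.08 ± 0.20 on the log2 scale, or 4.23-fold (SE, edgeR adjusted p = 1.63e-06). It ranked 132 among the 3622 contigs by size of fall in that step. It then rose by 0.81 ± 0.19 to H15 (SE, edgeR adjusted p = 0.00172) and fell by 0.59 ± 0.19 to H20 (SE, edgeR adjusted p = 0.0262). That last call was lost when replicate 1 or 2 of H15 or replicate 1 or 3 of H20 was left out, with edgeR adjusted p of 0.082, 0.0785, 0.101 and 0.0876. H9 and H20 were not told apart (log2 difference 0.23, edgeR adjusted p = 0.286). The H6 libraries of GASA4 spread widely, with an SD of 38.1 RPKM around a mean of 146 RPKM. When any 1 library was left out, the H9 to H6 difference stayed between −2.20 and −1.86.

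GASA12 rose 5.16-fold from H6 to H9, by 2.37 ± 0.15 on the log2 scale (SE, edgeR adjusted p = 6.51e-08). It rose again by 1.95 ± 0.14 to H15 (SE, edgeR adjusted p = 1.44e-07) and showed no called change to H20 (0.14 ± 0.13, adjusted p = 0.436 in edgeR). By its rise from H6 to H20 it ranked 45 among the 3622 contigs. The ratio of GASA12 to GASA4 within a library was 0.0562 ± 0.0151 at H6 and 1.19 ± 0.0834 at H9 (SD, n = 3). It was 2.64 ± 0.227 at H15 and 4.36 ± 0.418 at H20 (SD, n = 3), and no time points overlapped in it. GASA14 (contig 7144), a family member matched through its Arabidopsis locus and not by the rule, had mean levels of 56.0, 81.7, 177.5 and 138.7 RPKM from H6 to H20. It rose by 1.41 ± 0.23 from H6 to H20 (SE, edgeR adjusted p = 5.87e-05). The 3 GASA peptides together gave 210.3 ± 48.9 RPKM at H6, 158 ± 20.2 at H9, 379 ± 29.2 at H15 and 339 ± 28.4 at H20 (SD, n = 3 each).

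**Figure D2:**
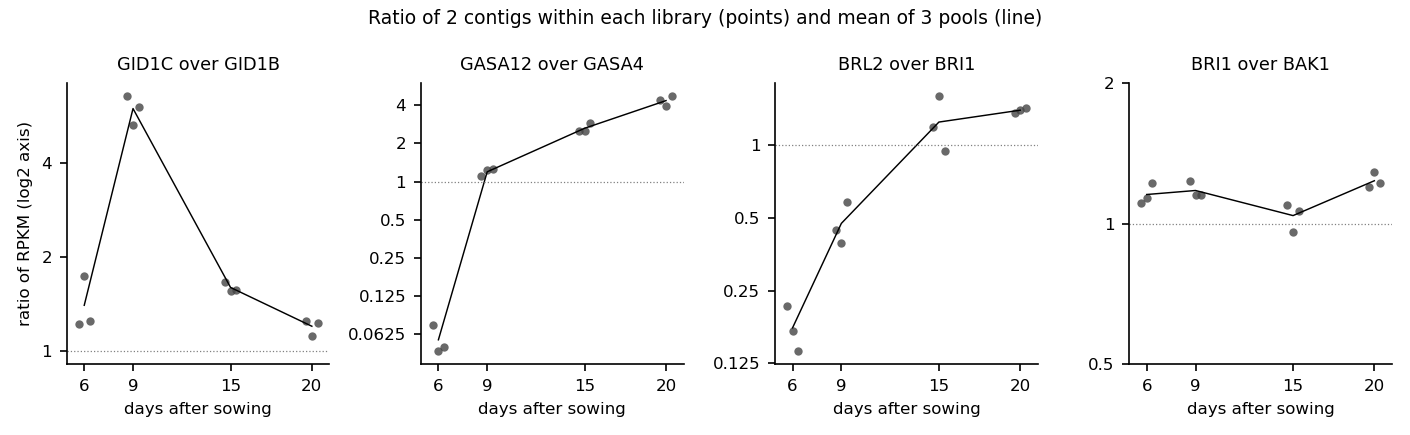
Ratio of the RPKM of 2 contigs within each library (vertical axes, log2 scaled) against days after sowing, with points for the 3 libraries and a line through the means. GID1C over GID1B peaked at H9 at 5.99, GASA12 over GASA4 went from 0.0562 to 4.36, BRL2 over BRI1 went from 0.175 to 1.39, and BRI1 over BAK1 stayed between 0.957 and 1.29.

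BRI1 (contig 1535, 4362 bases), the brassinosteroid receptor kinase, declined mainly between H9 and H15. Its level was 27.1, 28.3 and 33.1 RPKM at H6 and 25.0, 25.2 and 23.9 RPKM at H9. At H15 it was 14.2, 12.9 and 15.8 RPKM, and at H20 13.0, 13.4 and 12.9 RPKM. Only H15 and H20 overlapped. BRI1 fell by 0.65 ± 0.10 on the log2 scale from H9 to H15 (SE, edgeR adjusted p = 9.69e-05) and by 1.07 ± 0.11 from H6 to H20 (SE, edgeR adjusted p = 5.79e-07). From H15 to H20 the log2 difference was −0.16 (edgeR adjusted p = 0.256). From H6 to H9 it was −0.27 ± 0.10 (edgeR adjusted p = 0.0314). This small first step was −0.04 (adjusted p = 0.727) with DESeq2, and its edgeR adjusted p was 0.138 without replicate 3 of H6 and 0.0662, 0.0566 and 0.0673 without replicates 1, 2 and 3 of H9.

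Of the other perception and signalling genes of the pathway list, BAK1 (contig 5936), the co-receptor, had mean levels of 25.5, 21.0, 13.8 and 10.6 RPKM from H6 to H20. The ratio of BRI1 to BAK1 within a library ranged from 0.957 to 1.29 over the 12 libraries, with means of 1.15, 1.18, 1.04 and 1.24. BRL2 (contig 5474), a BRI1-like kinase expressed in provascular cells of Arabidopsis, went the other way. Its levels were 5.87, 4.79 and 4.64 RPKM at H6, 11.1, 9.92 and 13.9 at H9, 16.9, 20.6 and 15.0 at H15, and 17.6, 18.8 and 18.4 at H20. BRL2 rose by 1.94 ± 0.18 on the log2 scale from H6 to H20 (SE, edgeR adjusted p = 2.70e-07). The ratio of BRL2 to BRI1 was 0.175 ± 0.0384 at H6, 0.474 ± 0.0972 at H9, 1.24 ± 0.33 at H15 and 1.39 ± 0.0396 at H20 (SD, n = 3 each). The summed level of BRI1 and BRL2 lay between 30.6 and 37.9 RPKM in all 12 libraries, with means of 34.6, 36.4, 31.8 and 31.3 RPKM. Whether BRL2 perceives brassinosteroid in hemp was not tested, so the sum is not a level of receptors.

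BSK5 (contig 3208, 1891 bases, symbol AT5G59010) was annotated as a brassinosteroid-signaling kinase, one of the cytoplasmic kinases downstream of BRI1. It measured 21.3, 21.9 and 27.9 RPKM at H6 and 36.8, 31.1 and 34.7 RPKM at H9. It measured 12.9, 15.2 and 15.7 RPKM at H15 and 9.28, 7.83 and 8.81 RPKM at H20. No time points overlapped, and the order was H9, H6, H15 and H20. The rise from H6 to H9 was 0.51 ± 0.14 on the log2 scale (SE, edgeR adjusted p = 0.00545). The contig then fell by 1.08 ± 0.14 to H15 (SE, edgeR adjusted p = 1.77e-05) and by 0.79 ± 0.15 to H20 (SE, edgeR adjusted p = 9.99e-04). BSK5 and GID1C were the members with their highest level at H9.

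BRH1 (contig 14003, 360 bases) encodes a RING-H2 protein whose transcript responds to brassinosteroid in Arabidopsis. It was the shortest member, and its counts of 37 to 201 reads per library were the lowest. Its level was 24.4, 27.4 and 33.8 RPKM at H6 and 19.4, 16.8 and 18.2 RPKM at H9. It was 12.5, 8.81 and 10.8 RPKM at H15 and 7.49, 6.21 and 7.43 RPKM at H20. The 4 time points formed separate ranges that descended with age. BRH1 fell by 0.67 ± 0.19 on the log2 scale from H6 to H9 (SE, edgeR adjusted p = 0.00541). It fell by 0.63 ± 0.19 to H15 (SE, edgeR adjusted p = 0.00868) and fell by 0.62 ± 0.20 to H20 (SE, edgeR adjusted p = 0.0262). This last call was lost without replicate 1 or 3 of H15 or replicate 2 or 3 of H20, with edgeR adjusted p of 0.0989, 0.0548, 0.0891 and 0.0544. It was also lost in an edgeR fit of these time points alone, at −0.57 (adjusted p = 0.0695). Over the whole course BRH1 fell 3.77-fold (edgeR adjusted p = 8.91e-07), the largest fall among the members in this fit, next to 3.62-fold for GASA4.

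**Figure D3:**
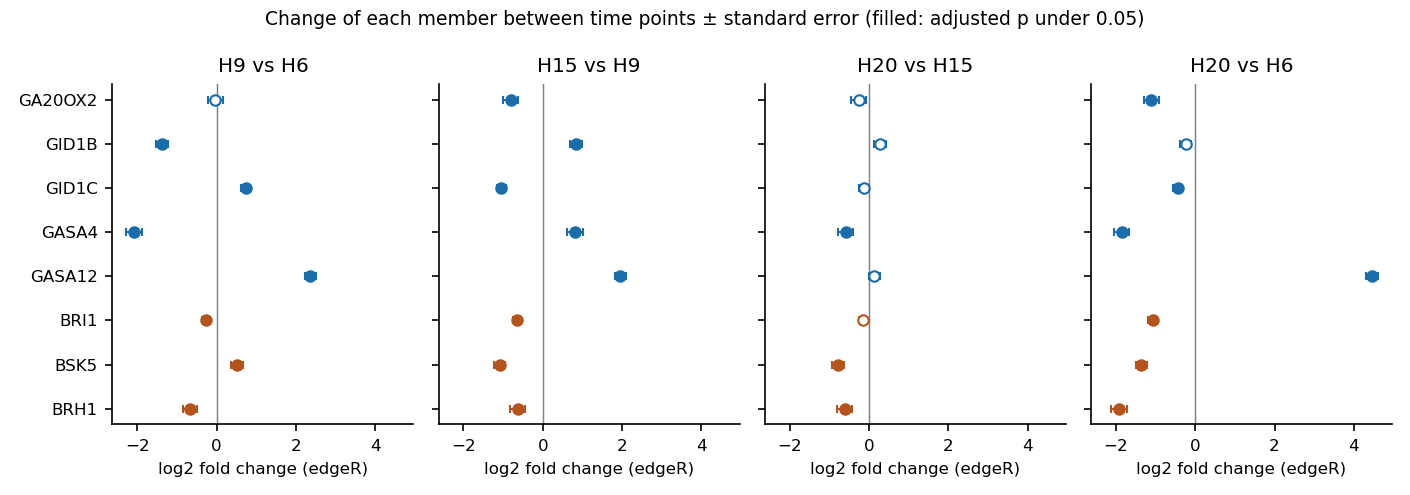
Log2 fold change of the 8 members in each of the 4 comparisons (horizontal axis, later against earlier time point), with bars for ± 1 standard error and filled points for an adjusted p under 0.05 in edgeR. Members were called in both directions from H6 to H9 and from H9 to H15, and 3 were called lower with none higher from H15 to H20.

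Between consecutive time points, which share libraries, the members divided as follows. From H6 to H9, GID1C, GASA12 and BSK5 rose and GID1B, GASA4, BRI1 and BRH1 fell, so that 3 were higher and 4 lower, against 37.9% and 36.8% of all contigs. DESeq2 called GID1B and GASA4 lower in that step, but neither BRI1 nor BRH1. From H9 to H15, GID1B, GASA4 and GASA12 rose and the other 5 fell, against 38.3% higher and 41.3% lower over all contigs. From H15 to H20, GASA4, BSK5 and BRH1 fell, against 24.4% of all contigs lower and 17.0% higher. The count of members that rose in this step was 0 in edgeR, also at an unadjusted p under 0.05, and 0 in DESeq2 and in limma. These counts were not tested against the background. When a log2 fold change over 1 was asked for as well, GASA12 rose and 5 members fell from H6 to H20, against 34.2% and 37.4% of all contigs. By the same stricter call 1 member rose and 2 fell from H6 to H9 (17.9% and 18.2% of all contigs), and 1 rose and 2 fell from H9 to H15 (22.7% and 20.8%). From H15 to H20 the stricter call gave 0 members in either direction (5.25% higher and 8.31% lower).

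Every contig of the table, members included, had passed the authors' limits on fold change and on RPKM difference. Within that selection the members changed about as much as the table did. The fold between a contig's highest and lowest mean had a median of 3.26 over the members and of 3.29 over all contigs. It was smallest in BRI1 (2.26) and by far the largest in GASA12 (20.5). Their mean level over the 12 libraries went from 13.9 RPKM in GA20OX2 to 89.4 RPKM in GASA12.

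The wider pathway was read from a list of 97 genes of gibberellin and brassinosteroid synthesis, inactivation, perception and response. Contigs were matched to the list by Arabidopsis symbol or locus, so a contig with only a worded description could be missed. In this way the table held 16 of the genes in 17 contigs, 7 of which were members. None of the 9 listed genes of gibberellin inactivation, of the 9 of sterol synthesis or of the 4 of brassinosteroid inactivation was matched among the selected contigs. This does not show that they were absent from the table, and it says nothing of their level in the hypocotyl. Gibberellin synthesis was represented by 1 of 14 genes and gibberellin perception and signalling by 2 of 12. Brassinosteroid synthesis was represented by 2 of 7 and brassinosteroid perception and signalling by 3 of 21, which were BRI1, BRL2 and BAK1. The member BSK5 was not matched to the list and is not counted there. Of the response genes, 4 of 17 for gibberellin and 4 of 4 for brassinosteroid (BRH1, EXO, EXL2 and EXL3) were found. The list was drawn up with earlier results of these data known. How many of its genes were found is therefore no measure of how fully a pathway was covered. Among the 10 contigs of the list that were not members, 6 fell and 3 rose from H6 to H20, where 52.8% of all contigs were lower and 40.8% higher. From H6 to H9, 3 rose and 5 fell (37.9% and 36.8% of all contigs). From H9 to H15, 4 rose and 4 fell (38.3% and 41.3%), and from H15 to H20, 3 fell (24.4%). These counts were not tested against those shares.

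Both brassinosteroid synthesis genes of the list fell from H6 to H20. DET2 (contig 2856), a steroid reductase, had mean levels of 20.2, 16.4, 10.6 and 10.1 RPKM from H6 to H20, and DET2 fell by 0.91 ± 0.19 on the log2 scale over that interval (SE, edgeR adjusted p = 5.14e-04). CPD (contig 4890), a cytochrome P450 of the pathway, had 47.5 ± 2.83 RPKM at H6 and 45.3 ± 1.33 at H9, which overlapped, and then dropped to 23.6 ± 1.52 at H15 and 14.0 ± 1.45 at H20 (SD, n = 3 each). CPD fell by 1.66 ± 0.11 on the log2 scale from H6 to H20 (SE, edgeR adjusted p = 1.48e-08). A further contig was described as steroid 22-alpha-hydroxylase, the reaction that DWF4 catalyses in Arabidopsis, and was picked after its values were seen. That steroid 22-alpha-hydroxylase contig (16187) had 10.8, 21.2, 47.3 and 33.4 RPKM in the mean, and rose by 1.74 ± 0.14 from H6 to H20 (SE, edgeR adjusted p = 1.22e-07). Its ratio to CPD within a library went from 0.229 ± 0.0424 at H6 to 2.42 ± 0.426 at H20 (SD, n = 3 each), and its libraries crossed 1 between H9 and H15.

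Of the contigs listed under response, AGF2 (contig 3943), an AT-hook protein named for gibberellin feedback, fell mainly from H6 to H9. Its level was 62.6, 66.0 and 50.1 RPKM at H6 and 13.7, 14.1 and 15.3 RPKM at H9, and 9.00 to 10.7 RPKM in the 6 later libraries. AGF2 fell by 2.06 ± 0.13 on the log2 scale from H6 to H9 (SE, edgeR adjusted p = 6.56e-08). Both AGF2 and GASA4 thus had their highest level at H6, and each fell more than 4-fold by H9. GASA12 and GASA14 rose in the same step, by 2.37 and 0.53 on the log2 scale in edgeR. The GASA14 call was lost in many alternatives, as given below.

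The EXORDIUM family, brassinosteroid-induced cell wall proteins in Arabidopsis, was split. EXL3 (contig 1365) was the most abundant pathway contig and went from 52.6 ± 7.11 RPKM at H6 to 102 ± 4.41 at H9, 325.5 ± 43.9 at H15 and 353 ± 10.7 at H20 (SD, n = 3 each). It rose 7.20-fold from H6 to H20 (edgeR adjusted p = 1.65e-09). EXL2 contig 638 fell by 1.51 ± 0.14 on the log2 scale in the same interval (SE, edgeR adjusted p = 3.51e-07), and EXL2 contig 8553 fell by 1.12 ± 0.24 (SE, edgeR adjusted p = 6.13e-04). Whether these contigs are pieces of 1 gene was not tested. EXO itself (contig 8954) was lowest at H9, with a mean of 19.0 RPKM against 53.8 at H6, and did not differ detectably between H6 and H20 (log2 difference 0.23, edgeR adjusted p = 0.493). Its H6 libraries held 69.0, 26.4 and 66.0 RPKM, and the H20 to H6 difference was −0.10 without replicate 2 of H6.

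**Figure D4:**
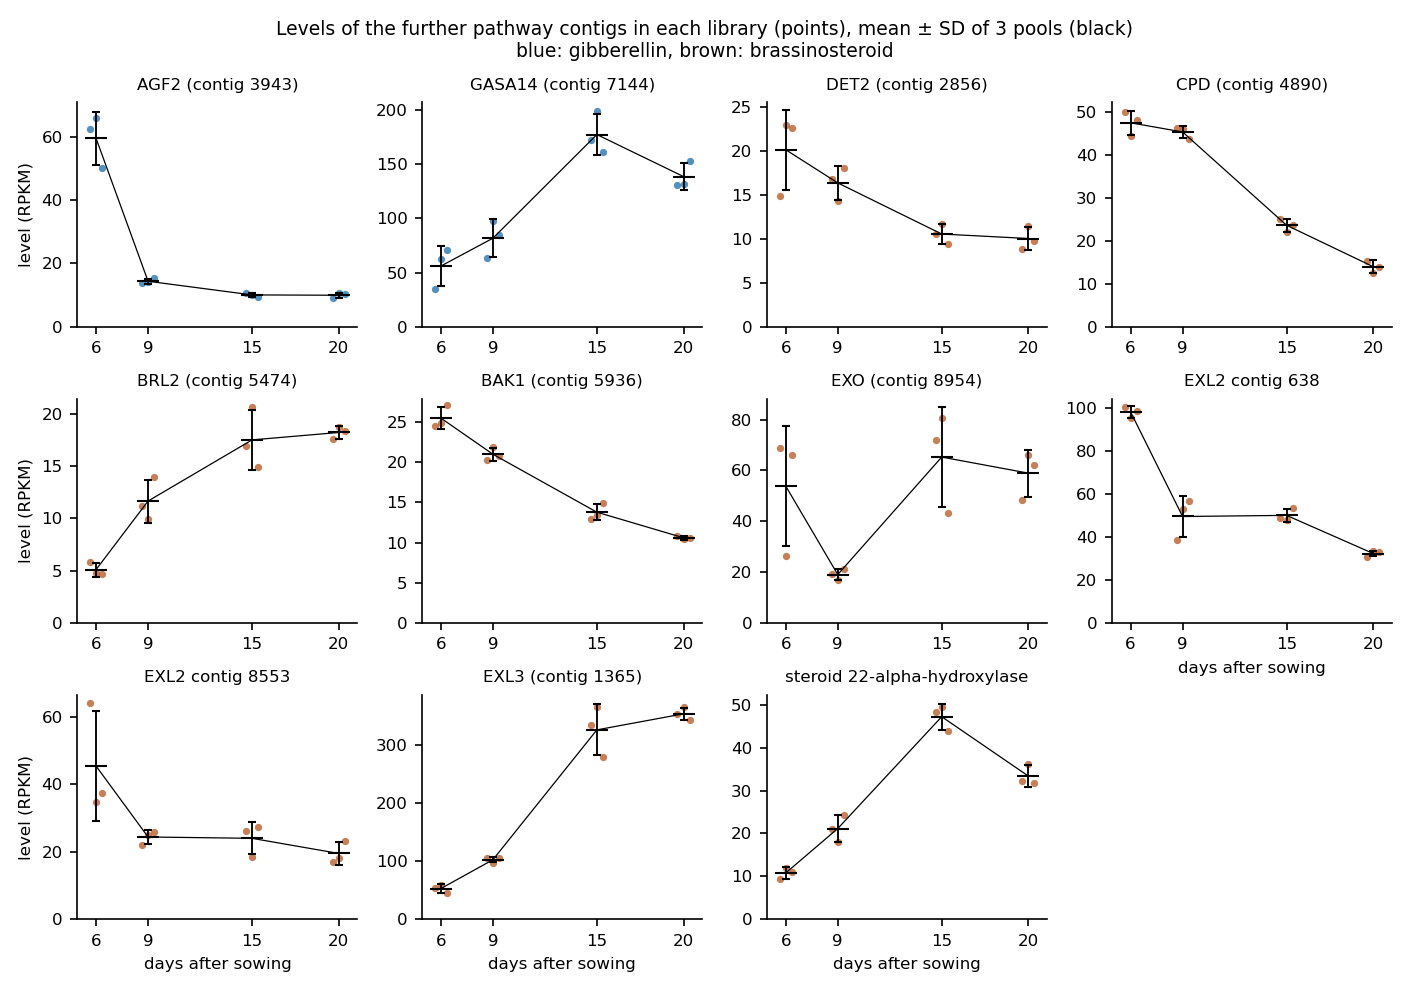
Level in RPKM (vertical axes, each from 0) against days after sowing of the 10 contigs of the pathway list that are not members, and of the steroid 22-alpha-hydroxylase contig. Points are the 3 libraries, black bars the mean ± SD. EXL3, GASA14, BRL2 and the hydroxylase were higher at H20 than at H6, AGF2, DET2, CPD, BAK1 and both EXL2 contigs were lower, and EXO was lowest at H9.

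Markers of tissues that a whole hypocotyl holds moved over the same days. Of 7 listed xylem vessel and fiber genes 5 were found (CESA4, CESA7, CESA8, LAC4 and LAC17, in 14 contigs), and their summed level ranged from 290.3 to 529 RPKM at H6, 1162 to 1779 at H9, 4161 to 4382 at H15 and 3871 to 4268 at H20. Of 4 cambium genes 2 were found (WOX4 and PXY), with 56.3 to 77.3 RPKM at H6, 109 to 123 at H9, 139 to 177 at H15 and 136 to 160.5 at H20. Of 4 green tissue genes 3 were found (LHCB1.3, PSAO and RBCS1A), with 1644 to 2010 RPKM at H6, 782 to 924 at H9, 357 to 397 at H15 and 509.9 to 562 at H20. Of 5 sieve element genes only SEOB was found, in 6 contigs, with 158 to 365 RPKM at H6, 272 to 562 at H9, 388 to 419 at H15 and 667 to 758 at H20. None of the 2 root and 3 seed reserve genes listed was matched by symbol or locus among the selected contigs. GASA12, GASA14, BRL2, EXL3 and the steroid 22-alpha-hydroxylase contig had their rises between H6 and H15, as the xylem and cambium markers did. The hydroxylase contig was then called lower at H20 in edgeR. GID1B and EXO were lowest and GID1C and BSK5 highest at H9, which no mean marker sum was. The green tissue markers fell from H6 to H9 and again to H15, and BRI1, BRH1, BAK1 and AGF2 were called lower in both steps in edgeR. DESeq2 did not call BRI1, BRH1 or BAK1 from H6 to H9. From H15 to H20 the green tissue markers rose. In that last step edgeR called BRH1 and BAK1 lower and called neither BRI1 nor AGF2. GASA4 fell from H6 to H9 and rose to H15, and CPD was called lower from H9 to H15 and from H15 to H20. The part of a changing tissue make-up in these results was not tested.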

How the data were processed

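The members of the group and all gene lists were chosen with earlier results of these data known. Reads of 12 libraries were trimmed, freed of duplicates, assembled de novo and mapped to the contigs by the authors with CLC Genomics Workbench, and contigs were annotated by similarity to Arabidopsis with Blast2GO PRO. The deposited counts are, for each contig and library, the reads that mapped to 1 place only. The deposited RPKM were computed by the authors from counts, contig length and mapped reads. The authors kept contigs with differences among time points in a 4-group analysis of variance, by a limit on the FDR, on fold change and on RPKM difference, and deposited only these; the p-value and FDR columns of that comparison were not used.

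Counts were tested with edgeR 4.0.16 (glmQLFit, glmQLFTest) in 1 fit of the 12 libraries with 1 coefficient per time point, library sizes implied by the deposited RPKM, TMM factors (0.926 to 1.06) and Benjamini-Hochberg adjustment over 3622 contigs. filterByExpr removed 0 contigs. TMM factors and DESeq2's size factors were both computed from these 3622 contigs alone, which had been selected for differing among time points. Neither scaling therefore rests on contigs known to be unchanged. Means, SD and within-library ratios are of RPKM. Alternatives were mapped reads without TMM factors, DESeq2 1.42.0, limma 3.58.1 on log2(RPKM + 1) and log2(RPKM + 0.1), no filter, a fit of the 2 time points compared, replicate number as a block, leaving out each library, contigs of 1 symbol summed, and a log2 fold change over 1. The fit was tested on simulated data. Every member and every contig of the pathway list was named, and full statistics were kept for the most abundant members and the largest changes in each role. Contrasts of H15 with H6 and H20 with H9 and the within-library ratios were added after the data were seen. Contigs carry no genome position, and sequences were not used here. Read counts of replicates differed by more than sampling noise in every pair, so no library was counted as a repeat of another.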

Additional observations from a re-analysis of the deposited data

How the results depend on the processing

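All calls of the members from H9 to H15 and those of GA20OX2, GASA4, GASA12, BRI1, BSK5 and BRH1 from H6 to H20 held in every alternative that kept the threshold on p alone. DESeq2 shifted the median of all contigs by 0.23 on the log2 scale from H6 to H9 and by 0.295 from H6 to H20, and left 2 members lower from H6 to H9 (4 in edgeR), with BRH1 at an adjusted p of 0.0505. Mapped reads without TMM factors shifted the median by −0.14 from H9 to H15 and by −0.10 from H6 to H20, where GID1B became lower at −0.34 (adjusted p = 0.0399). In a fit of the time points compared alone, 1 member was higher from H15 to H20, which was GID1B at 0.33 (adjusted p = 0.0383). Asking for a log2 fold change over 1 left 1 member higher and 2 lower from H6 to H9 and 1 higher and 2 lower from H9 to H15. From H15 to H20 it left 0 members and 0 further pathway contigs lower. Of the further contigs it left 1 higher and 2 lower from H6 to H9 and 0 lower from H9 to H15. Leaving out 1 library each gave 1 to 3 members lower from H15 to H20 (1 without replicate 1 of H15 and 1 without replicate 3 of H20) and 2 to 4 further contigs lower from H9 to H15 (2 without replicate 3 of H9 and 2 without replicate 3 of H15, where AGF2 and DET2 were lost).

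Signs turned only in differences that edgeR had not called. With DESeq2, GA20OX2 was at 0.19 and CPD at 0.15 from H6 to H9, AGF2 at 0.0063 from H15 to H20 and GID1B at 0.053 from H6 to H20. In a fit of the time points compared alone, AGF2 was at 0.013 from H15 to H20 and GID1B at 0.0044 from H6 to H20. EXL2 contig 8553 from H9 to H15 was at −0.026 without TMM factors and at −0.039 and −0.041 in the limma fits. When a library was left out, the ranges that crossed 0 were −0.13 to 0.014 for GA20OX2 from H6 to H9 and −0.0067 to 0.29 for EXL2 contig 638 from H9 to H15. From H15 to H20 they were −0.085 to 0.017 for AGF2, −0.081 to 0.19 for BRL2, −0.41 to 0.030 for EXO and −0.018 to 0.20 for EXL3, and from H6 to H20 −0.10 to 0.45 for EXO. The cause of these turns was not tested. GASA14, called higher from H6 to H9 at an adjusted p of 0.0487 in edgeR, lost the call in a fit of these time points alone (0.107) and in 10 of the 12 fits that left out a library (0.0503 to 0.169, all but those without replicate 3 of H6 or replicate 1 of H9). BAK1 in that step lost it with DESeq2 (0.567), without replicate 3 of H6 (0.0586) and without replicate 1 of H9 (0.058). The replicate block changed no call of a member. Correlations of same-numbered pools across time points ran from −0.28 to 0.26, with 4 of 18 over 0.1. They showed no steady pairing by number, but did not exclude it. BRH1 had the fewest reads of the members, 37 to 201 a library.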
